A study of Zea mays with 18 samples.

Results

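The asparagine synthetase genes of maize were followed in root RNA of 2 genotypes under 3 growth conditions. Members were the annotated genes whose deposited description named a glutamine-hydrolyzing asparagine synthetase, which selected 10 of the 55661 features of the table. WT was the inbred line B73, and *zmccd8* was a line of the same background whose *ZmCCD8*, a gene of strigolactone synthesis, carries a transposon of the Ds family in an exon. It is a single line, so effects of the line and of the gene cannot be told apart. All plants grew for 4 weeks in pots of vermiculite under controlled light and temperature. The 3 regimes differed in what the pots were given: a full Hoagland solution at 3 feeds a week (CT, the control), feeds in which a chloride salt of potassium stood in for 1 mM KNO3 (0N, nitrogen deficiency), or a single full feed on the day of potting and then neither water nor nutrients (WS, water stress). Each of the 6 groups held 3 biological replicates, described by the study as pools of plants, so that 18 libraries of poly(A) root RNA were compared.

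Asparagine synthetase moves the amide nitrogen of glutamine onto aspartate at the cost of ATP and releases asparagine and glutamate. Asparagine carries much nitrogen for its carbon, and plants use it to store nitrogen and to move it between roots and shoots. Asparaginase frees this nitrogen again, and glutamine synthetase and aspartate aminotransferase make the precursors of the reaction.

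Libraries held 30104083 to 43429912 reads assigned to features, rebuilt from the deposited FPKM, a read count scaled by gene length and library size. Testing covered 27530 features that reached 1 FPKM in at least 3 of the 18 libraries, on log2(FPKM + 1), with limma and a Benjamini-Hochberg adjustment over all of them. A gene was called at an adjusted p of 0.05 or less with an absolute log2 difference of 1 or more. Reads on *ZmCCD8* itself (Zm00001eb153000) ran from 4.16 to 8.76 FPKM in WT CT, 47.8 to 70.9 in WT 0N and 8.85 to 10.7 in WT WS, against 5.63 to 16.6, 9.47 to 19.2 and 18.1 to 27.4 FPKM in *zmccd8*. Whole-gene values cannot place a read before or after the transposon, so they do not check the genotype labels. Root markers, 45 genes matched by the name of the Casparian strip membrane protein or its domain, summed to 234 to 799 FPKM per library. Leaf markers were read as well. The Rubisco small subunit (2 genes) summed to 0 to 8.00 FPKM and pyruvate, phosphate dikinase (3 genes) to 1.69 to 38.9 FPKM. Chlorophyll a-b binding proteins (31 genes) summed to 6.24 to 102 FPKM. All of these leaf lists were highest in a WT CT library.

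Reads fell on 4 of the members and not on the other 6. *ASN1* (Zm00001eb380080) lies on chromosome 9 of the B73 build Zm-B73-REFERENCE-NAM-5.0, minus strand, from 34625482 to 34634881, and its description points to rice asparagine synthetase 2. *ASN3* (Zm00001eb013430) occupies bases 44908935 to 44912718 of chromosome 1, minus strand, and *ASN4* (Zm00001eb396990), on the plus strand, chromosome 9 from 143805569 to 143809317. Both are described after rice asparagine synthetase 1, whose gene is known in rice as the one used mainly in roots. *ASN2* (Zm00001eb163240), at 235198390 to 235201558 of chromosome 3, minus strand, is described after the asparagus enzyme, known there from harvested spears, and lies 33.0 Mb from *ZmCCD8*. Names of *ASN1*, *ASN2* and *ASN3* are synonyms of the RefSeq loci that share 98.1%, 97.1% and 91.0% of their spans, and *ASN4* is the name the study uses. The names are not free of conflict, since a transcript-level feature inside the *ASN4* locus (143808000 to 143809317), listed at 0 in every library and not a member, is described after the maize protein called ASN1. The 3′ end of *ASN4* shares 727 bases with Zm00001eb397000 on the opposite strand, a gene at 0.903 to 9.38 FPKM, and whether counting used strand is not given in the sources used here. How reads that matched more than 1 of these paralogs were counted is not given either.

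The 6 members without reads were short models that lay in pairs at 3 places. Zm00001eb036060 and Zm00001eb036070 adjoin on chromosome 1 between 196537025 and 196538241, Zm00001eb103520 and Zm00001eb103530 on chromosome 2 between 202187325 and 202189596, and Zm00001eb349970 and Zm00001eb349980 on chromosome 8 between 110648688 and 110650815. Each pair overlaps a single RefSeq pseudogene, which covers 93.1% of Zm00001eb349970 and all of the other 5 models. None had a read among the 630153997 assigned to features in all 18 libraries. Reads that were not assigned to a feature are outside that total. Per library, 3 reads, the limit that a count of 0 allows, correspond to 0.0764 to 0.110 FPKM for the longest of them (Zm00001eb103530) and to 0.225 to 0.323 FPKM for the shortest (Zm00001eb036060), counting error only. Expression of the family in these roots was thus measured through 4 genes.

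These 4 genes differed widely in level and in how steady they were, on the FPKM scale, which is per length. *ASN1* was the steadiest of the 4, between 39.3 and 105 FPKM in all 18 libraries, with a mean of 73.1. *ASN3* covered 4.24 to 421 FPKM (mean 59.3), *ASN4* 1.66 to 22.0 FPKM (mean 9.08) and *ASN2* 0 to 15.4 FPKM (mean 2.09). *ASN2* reached 1 FPKM in the 6 WS libraries alone, so it passed the filter on low values only through the condition in which it was high, while the other 3 passed in all 18 libraries.

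**Figure D1:**
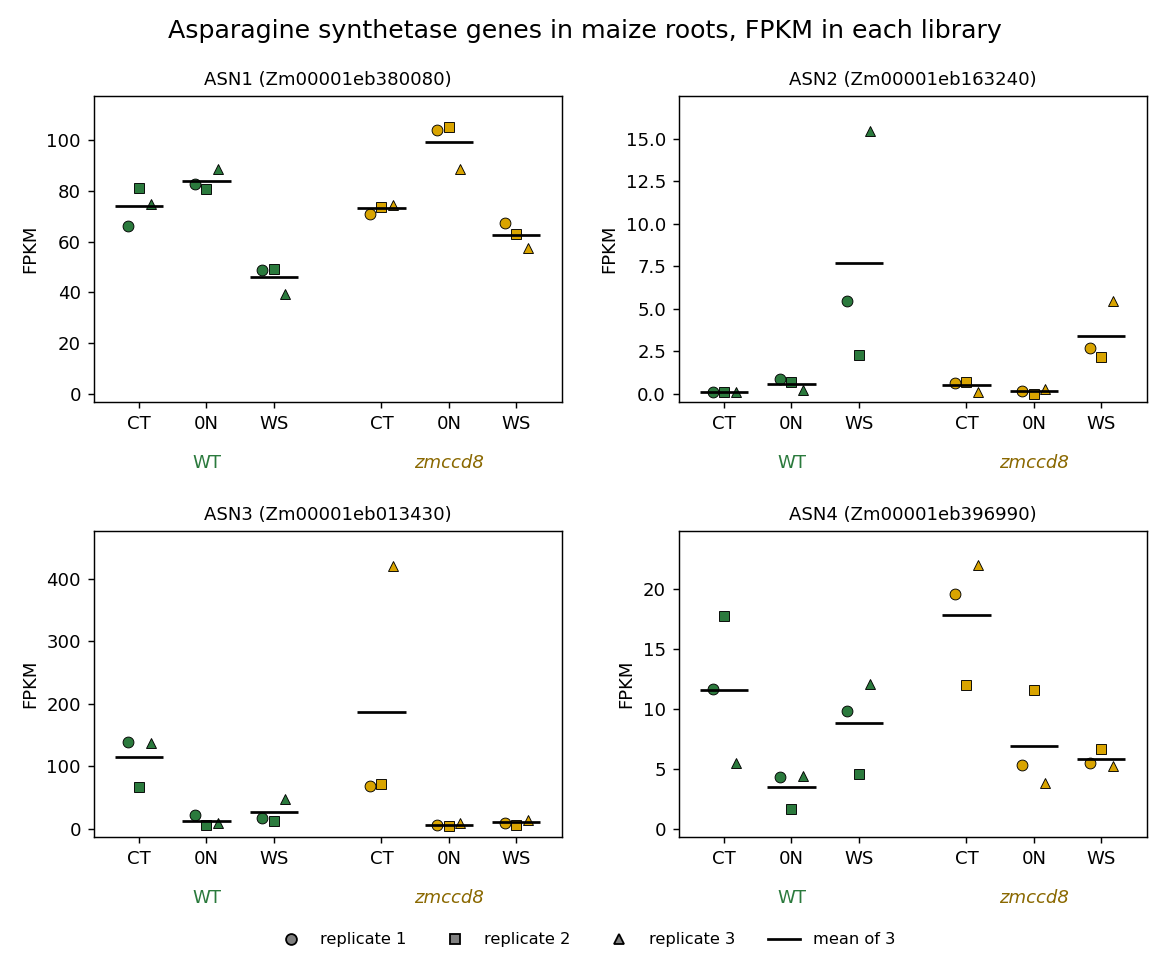
FPKM (y axis, linear, a separate scale per panel) of the 4 genes with reads in each library, by condition (x axis) and genotype (WT green, *zmccd8* yellow). Symbols are replicates 1 to 3 and the bar is their mean. *ASN3* is high in CT and low in 0N and WS of both genotypes, *ASN2* is above 1 FPKM in WS only, *ASN1* stays between 39.3 and 105 FPKM, and replicate 3 of *zmccd8* CT stands apart for *ASN3* at 421 FPKM.

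*ASN3* was the member with the largest range, and it was lower under both stresses in both genotypes. In WT CT it stood at 138, 67.4 and 137 FPKM in replicates 1 to 3, and in WT 0N at 22.4, 6.03 and 8.29 FPKM. The groups did not overlap, as for 37.3% of all features, and replicate 2 was the lowest of each. Mean *ASN3* fell 9.33-fold, from 114 ± 40.6 to 12.2 ± 8.87 FPKM (SD, n = 3), and by 7.44- to 16.0-fold when each library was left out in turn, the latter without replicate 1 of WT 0N. The log2 difference was -3.25 (SE 0.50, 95% interval -4.46 to -2.04, limma adjusted p = 0.0188). *ASN3* was the only member called between 0N and CT in WT. With *ASN2* left out, which passed the filter only through WS, this was 1 of 3 members. Among all features tested 4.76% were called, 1.94% higher and 2.82% lower.

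Nitrogen deficiency gave the same call in the mutant. *ASN3* measured 68.5, 71.2 and 421 FPKM in *zmccd8* CT and 6.13, 4.24 and 9.21 FPKM in *zmccd8* 0N. Every 0N library lay below every CT library, where 44.7% of all features did not overlap. Replicate 3 of CT lay far above the other replicates. Mean *ASN3* fell 28.6-fold with that library and 10.7-fold without it, and the log2 difference was -4.15 (SE 0.70, limma adjusted p = 0.0250) with it and -3.29 (limma adjusted p = 0.0275) without it. Here too *ASN3* alone was called, 1 of 3 members without *ASN2*, against 7.37% of all features called, 1.74% higher and 5.63% lower.

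Both 0N calls of *ASN3* were close to the threshold. In WT the call was lost without replicate 2 or 3 of 0N or replicate 1 or 3 of CT, with a limma adjusted p of 0.0507 to 0.0660, and in *zmccd8* without replicate 1 or 2 of 0N or replicate 1 of CT (0.0631 to 0.0717). The direction was kept each time, with log2 differences of -3.76 to -2.89 in WT and -4.59 to -3.29 in *zmccd8*. Chlorophyll a-b binding protein genes, a leaf marker list of 31 genes of which 11 passed the filter, summed to 41.8 to 102 FPKM in WT CT and 7.63 to 14.7 FPKM in WT 0N, and thus moved with *ASN3* in WT, whereas in *zmccd8* they summed to 17.8 to 24.7 FPKM in CT and 6.24 to 23.3 FPKM in 0N, which overlap. The Rubisco small subunit likewise went from 2.49 to 8.00 FPKM in WT CT to 0 to 0.698 FPKM in WT 0N and overlapped in *zmccd8*, and pyruvate, phosphate dikinase, a leaf marker of 3 genes, overlapped in both. Among the 11 chlorophyll a-b binding protein genes tested, 0 were called higher and 6 lower under 0N in WT, beside 1.94% and 2.82% of all features. In *zmccd8* it was 0 and 1, beside 1.74% and 5.63%. The 1 Rubisco small subunit gene tested was called lower in WT and not in *zmccd8*. The root markers were below their CT range under 0N in *zmccd8*, from 659 to 707 FPKM to 435 to 509 FPKM, and stayed within it in WT (586 to 631 FPKM). The part of these markers in any 0N difference given here was not tested. In such bulk RNA, fewer cells of a type and less RNA per cell cannot be told apart.

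*ASN3* was lower under water stress as well. WT WS roots held 17.7, 12.1 and 48.1 FPKM. All lay below the WT CT libraries, where 53.3% of all features did not overlap, and replicate 3 was well above the others. Mean *ASN3* fell 4.40-fold with all libraries and 7.66-fold without that replicate, and the log2 difference was -2.26 (SE 0.52, limma adjusted p = 0.0160). The call was lost without replicate 1 of WS or replicate 1 or 3 of CT (limma adjusted p 0.0520 to 0.0559). Leaf markers moved with *ASN3* here as well: chlorophyll a-b binding protein genes summed to 12.9 to 31.2 FPKM, the Rubisco small subunit to 0.586 to 1.85 FPKM and pyruvate, phosphate dikinase to 4.14 to 4.86 FPKM in WT WS, all below the WT CT range, and their part was not tested. In *zmccd8* WS *ASN3* stood at 9.72, 6.23 and 14.5 FPKM. Again no WS library reached the lowest CT value, and 51.4% of all features did not overlap there. The mean fell 18.4-fold, and 6.87-fold without replicate 3 of CT, with a log2 difference of -3.59 (SE 0.70, limma adjusted p = 0.00755) that stayed called in every leave-one-out fit. Chlorophyll a-b binding protein genes, at 7.42 to 9.99 FPKM in *zmccd8* WS, were below their CT range there too. So was the Rubisco small subunit (0.0798 to 0.315 against 0.388 to 1.06 FPKM), while pyruvate, phosphate dikinase overlapped (5.43 to 10.3 against 7.19 to 32.2 FPKM). Of 11 chlorophyll a-b binding protein genes tested, 1 was called higher and 3 lower under WS in WT, beside 7.41% and 10.4% of all features. In *zmccd8* it was 1 and 1, beside 6.24% and 10.3%.

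Between the 2 stresses *ASN3* was not called. WS libraries overlapped 0N libraries in both genotypes, with log2 differences of 0.99 (95% interval -0.53 to 2.51) in WT and 0.55 (-0.25 to 1.36) in *zmccd8*. In *zmccd8*, where the replicate numbers were taken to pair WS with 0N, *ASN3* was higher in WS in all 3 pairs, and with a replicate block the difference of 0.55 passed on the adjusted p (limma, 0.0252 against 0.232 without the block) but not on the fold threshold. By group means the order was *zmccd8* CT, WT CT, WT WS, WT 0N, *zmccd8* WS and *zmccd8* 0N, and of the 5 neighbouring pairs only WT CT and WT WS did not overlap.

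*ASN2* behaved in the opposite way under water stress. In WT CT it had 0.112, 0.133 and 0.104 FPKM, that is 8 to 11 reads a library, and in WT WS 5.46, 2.29 and 15.4 FPKM, or 234 to 1122 reads. All WS libraries lay far above all CT libraries, and replicate 3 of WS was the highest. Mean *ASN2* rose 66.5-fold, to 7.73 ± 6.86 FPKM (SD, n = 3), and 33.4-fold without that replicate. On the log2(FPKM + 1) scale, which understates changes of low genes, the difference was 2.66 (SE 0.53, limma adjusted p = 0.00983). With a pseudocount of 0.1 it was 4.78, and on rebuilt reads (limma voom) 5.50, with the call kept.

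In *zmccd8* the same gene went from 0.655, 0.733 and 0.117 FPKM in CT to 2.69, 2.17 and 5.44 FPKM in WS. No CT library came near a WS library. Mean *ASN2* rose 6.84-fold, and the log2 difference was 1.52 (SE 0.31, limma adjusted p = 0.00890), 2.67 with a pseudocount of 0.1 and 3.07 with voom. Both WS calls of *ASN2* against CT held in every leave-one-out fit. *ASN2* entered the test only through its WS values. These calls and their leave-one-out fits use the same values, so they describe the gene and are not separate support. They say nothing of the family as a set.

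Under nitrogen deficiency *ASN2* stayed below 1 FPKM. WT 0N libraries were at 0.876, 0.691 and 0.258 FPKM (22 to 74 reads), and *zmccd8* 0N libraries at 0.179, 0 and 0.268 FPKM (0 to 22 reads). WT 0N lay above WT CT in every library with a log2 difference of 0.51 that was not called (SE 0.16, limma adjusted p = 0.0918), and *zmccd8* 0N overlapped its CT (-0.37, SE 0.20, limma adjusted p = 0.202). WS was above 0N in both genotypes, without overlap. The mean ratio was 12.7 in WT (log2 difference 2.15, SE 0.57, limma adjusted p = 0.0261), and 6.37 without replicate 3 of WS. In *zmccd8* it was 23.0 (1.88, SE 0.28, limma adjusted p = 0.00243), and 38.3 without replicate 3 of 0N or 15.4 without replicate 2. Having passed the filter through WS, *ASN2* is not counted against the share of all features. Of the other 3 members none was called between WS and 0N by limma or by voom. Of all features, 16.7% were called in WT (7.41% higher) and 17.9% in *zmccd8* (9.53% higher). An unadjusted p under 0.05 was found for 2 of the 3 in WT and 1 in *zmccd8*, beside 51.2% and 50.5% of all features. The WT call of *ASN2* was lost without replicate 1 of WS or any one replicate of 0N (limma adjusted p 0.0589 to 0.0745) and with voom (0.0522).

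*ASN4*, the second gene described after rice asparagine synthetase 1, was lower than *ASN3* in CT of both genotypes. WT CT libraries held 11.7, 17.7 and 5.45 FPKM of *ASN4*, WT 0N libraries 4.36, 1.66 and 4.38, and WT WS libraries 9.83, 4.59 and 12.1. Values in 0N were below all of CT, where 37.3% of all features did not overlap, while WS overlapped CT. The 0N difference of -1.44 (SE 0.46, limma adjusted p = 0.0965) and the WS difference of -0.32 (SE 0.46, 95% interval -1.42 to 0.79) were not called, and the latter turned to 0.05 and 0.03 without replicate 2 of WS or of CT.

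In *zmccd8*, *ASN4* stood at 19.6, 12.0 and 22.0 FPKM in CT, at 5.32, 11.6 and 3.83 FPKM in 0N and at 5.51, 6.66 and 5.22 FPKM in WS. Neither stress group overlapped CT, although replicate 2 of 0N came close to it. Of all features, 44.7% under 0N and 51.4% under WS did not overlap CT in *zmccd8*. *ASN4* fell 3.08-fold under WS (log2 difference -1.44, SE 0.23, limma adjusted p = 0.00323), a call that held in every leave-one-out fit. The 0N difference of -1.33 (SE 0.39, limma adjusted p = 0.0569) was not called, but passed in a fit of all 18 libraries (0.0251), with voom (0.0388), with a filter on a mean of 5 FPKM (0.0427) and without replicate 2 of 0N (0.0495). In order of means *ASN4* ran from *zmccd8* CT over WT CT, WT WS, *zmccd8* 0N and *zmccd8* WS to WT 0N, with only the last pair not overlapping. With *ASN2* left out for the reason given, 1 of 3 members was called between WS and CT in WT (*ASN3*, lower) and 2 of 3 in *zmccd8* (*ASN3* and *ASN4*, lower), against 17.8% and 16.6% of all features. Of all features, 7.41% were called higher and 10.4% lower in WT, and 6.24% and 10.3% in *zmccd8*. CT libraries are shared by the 0N and WS comparisons of a genotype, so that these do not count as independent.

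*ASN1* kept to a narrow band and was never called. In WT it measured 66.0, 81.1 and 75.0 FPKM in CT, 82.6, 80.7 and 88.5 FPKM in 0N and 49.0, 49.4 and 39.3 FPKM in WS. In *zmccd8* it measured 71.0, 73.8 and 74.4 FPKM in CT, 104, 105 and 88.7 FPKM in 0N and 67.5, 63.1 and 57.4 FPKM in WS. In each genotype the 0N mean was the highest and the WS mean the lowest, and WS overlapped neither CT nor 0N. Of all features, 51.4% to 55.5% did not overlap in these comparisons of WS.

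The differences of *ASN1* were below the fold threshold, but some passed on the adjusted p alone. In WT the WS level was below that of CT, with a log2 difference of -0.68 (SE 0.14, limma adjusted p = 0.0103), where 20% of all features passed that looser rule in the lower direction. WS against 0N gave -0.86 (SE 0.11, limma adjusted p = 0.00223) in WT and -0.66 (SE 0.12, limma adjusted p = 0.00559) in *zmccd8*, beside 21% and 20% of features. In *zmccd8*, 0N against CT gave 0.43 (SE 0.12, limma adjusted p = 0.0483), beside 6.87% of features in the higher direction, a result that did not last: 5 of 6 fits without a library gave 0.0712 to 0.152 (all but the one without replicate 3 of 0N), and 4 other settings, the replicate block among them (0.0520), gave 0.0510 to 0.0722. The order of *ASN1* means ran from *zmccd8* 0N over WT 0N, WT CT, *zmccd8* CT and *zmccd8* WS to WT WS, and the pairs WT 0N with WT CT and WT CT with *zmccd8* CT overlapped.

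**Figure D2:**
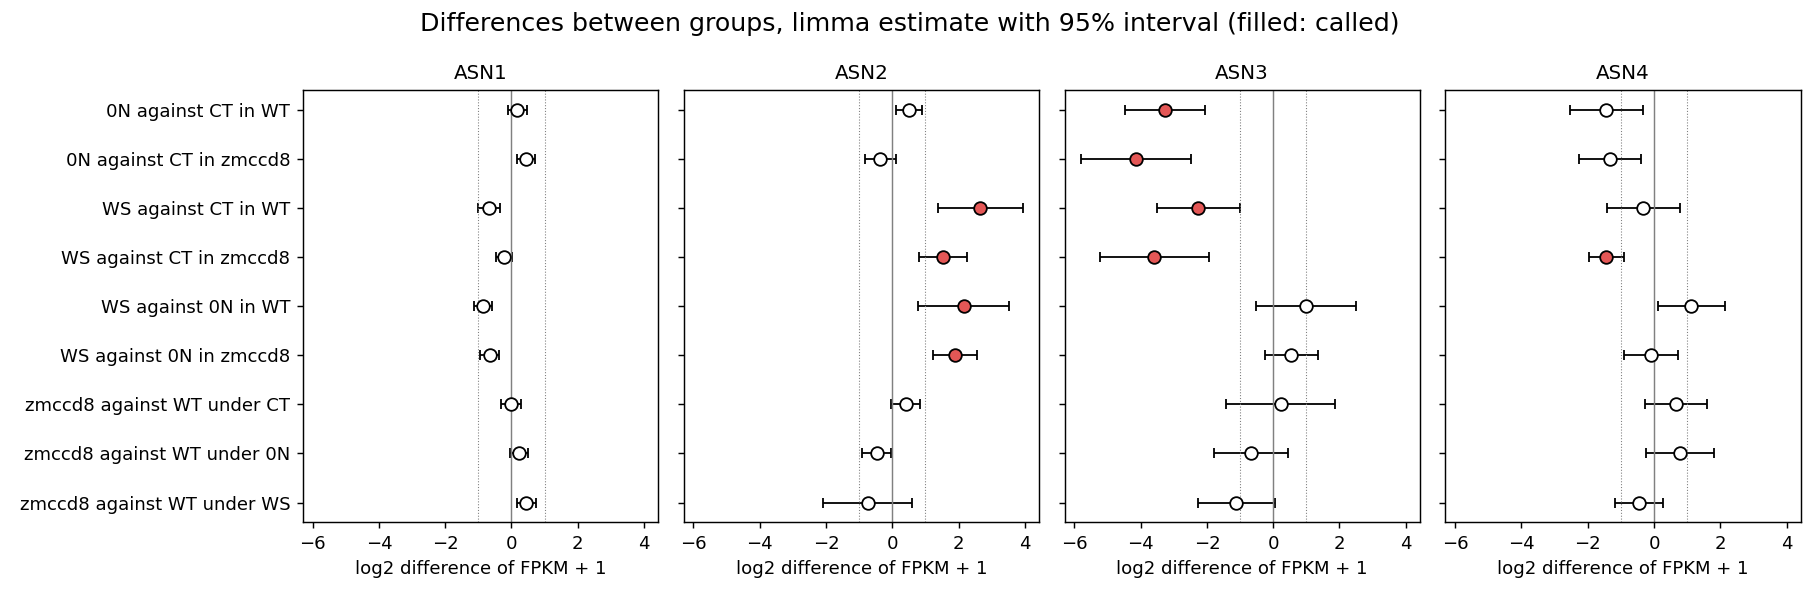
Log2 difference of FPKM + 1 (x axis) of the 4 genes in 9 comparisons between groups (y axis), as the limma estimate with its 95% interval, filled where called. Dotted lines mark differences of -1 and 1. Filled points are *ASN3* under 0N and WS against CT, *ASN2* under WS against CT and 0N, and *ASN4* under WS in *zmccd8*, and no genotype comparison is filled.

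The make-up of the family was described by adding up its 4 genes. Summed FPKM of the 4 genes averaged 200 ± 29.2 in WT CT, 100.3 ± 10.6 in WT 0N and 88.4 ± 23.9 in WT WS (SD, n = 3). *ASN3* made up 55.8% ± 13.3 of that sum in WT CT, 11.8% ± 7.45 in WT 0N and 27.1% ± 13.0 in WT WS. The share of *ASN1* went the other way, from 37.9% ± 9.58 in WT CT to 84.3% ± 8.24 in WT 0N and 55.4% ± 19.4 in WT WS. A lower *ASN3* raises the other shares by construction. Mean *ASN1* itself was 74.0 FPKM in WT CT, 84.0 in WT 0N and 45.9 in WT WS, so its share rose under WS while its level was lower. In *zmccd8* the sum was 158 to 517 FPKM in CT, 102 to 121 FPKM in 0N and 78.1 to 85.4 FPKM in WS, and the share of *ASN3* was 42.9% to 81.3%, 3.50% to 9.03% and 7.98% to 17.6%. *ASN3* had a larger share than *ASN1* in 3 of the 6 CT libraries, up to 81.3% against 14.4% in replicate 3 of *zmccd8* CT, and in 1 stressed library, replicate 3 of WT WS (41.9% against 34.2%). *ASN1* had the larger share in all other libraries. *ASN2* had at most 0.794% of the sum outside WS and 2.78% to 13.4% under WS. These shares are a description without a test.

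**Figure D3:**
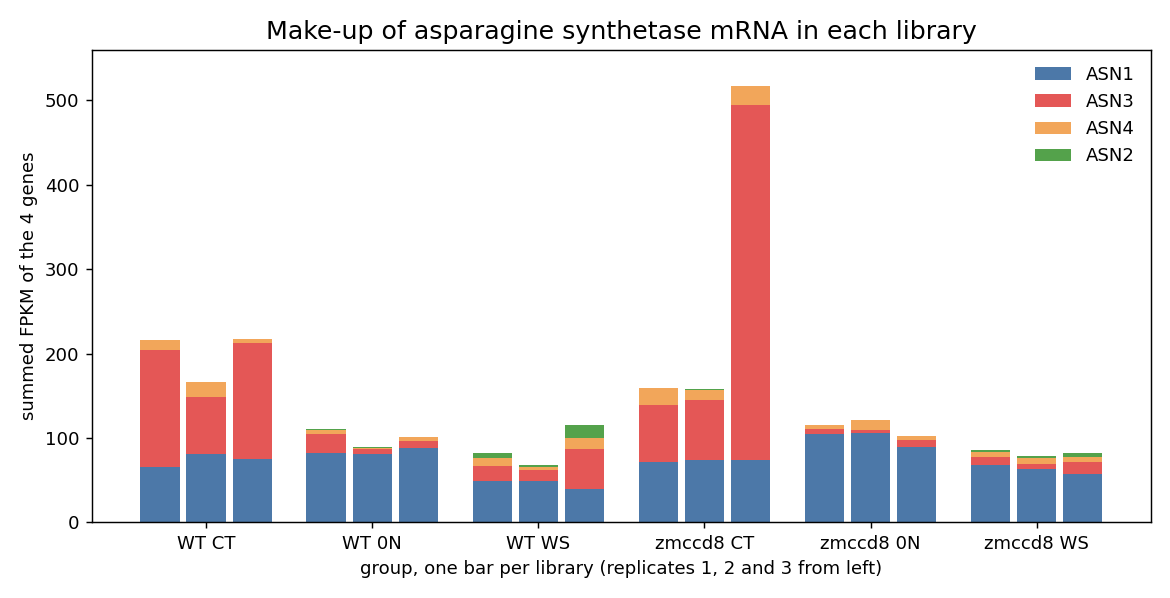
Summed FPKM of *ASN1*, *ASN3*, *ASN4* and *ASN2* (y axis, stacked bars) in each of the 18 libraries, replicates 1 to 3 from left in each group (x axis). The *ASN3* portion is 40.5% to 81.3% of the sum in CT and 3.50% to 41.9% in 0N and WS, its upper end being replicate 3 of WT WS, the *ASN1* portion is 39.3 to 105 FPKM, and the *ASN2* portion is visible in WS only, where it is 2.78% to 13.4% of the sum.

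Whether the loss of *ZmCCD8* shifted the family was asked by comparing *zmccd8* with WT in each condition. None of the 4 members was called under CT, 0N or WS, nor was any called with limma voom. Without *ASN2*, left out for the reason given, this was 0 of 3 in each, beside 0.835%, 1.57% and 0.901% of all features. At an unadjusted p under 0.05, without *ASN2*, were 0 of 3 members under CT, 0 of 3 under 0N and 1 of 3 under WS. The shares of all features were 7.38%, 26.8% and 13.5% in that order. With *ASN2* it was 2 of the 12 differences. These were *ASN2* under 0N (log2 difference -0.47, limma adjusted p = 0.169, but -1.58 with a pseudocount of 0.1 and -2.91 with voom, uncalled in each) and *ASN1* under WS (0.45, 95% interval 0.16 to 0.73, limma adjusted p = 0.198). *ASN1* was higher in *zmccd8* than in WT in every library under WS and under 0N (0.24, 95% interval -0.03 to 0.50). Every other pair of ranges overlapped, those of *ASN2* included. Of all features, 12.1%, 32.4% and 20.0% did not overlap between genotypes under CT, 0N and WS.

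The intervals of the genotype difference were wide for the other members. *ASN3* differed by 0.23 under CT (95% interval -1.41 to 1.87), -0.67 under 0N (-1.79 to 0.46) and -1.11 under WS (-2.28 to 0.07), and its CT value turned to -0.63 without replicate 3 of *zmccd8* and to -0.11 without replicate 2 of WT. *ASN4* differed by 0.67 (-0.27 to 1.61), 0.78 (-0.26 to 1.81) and -0.45 (-1.18 to 0.28) in the same order, and *ASN2* by 0.40 (-0.04 to 0.84) under CT and -0.74 (-2.08 to 0.60) under WS.

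Whether the 2 genotypes answered a stress differently was tested as an interaction. No member was called for 0N or WS, and voom called none either. Without *ASN2* this was 0 of 3 for each, beside 0% and 0.0218% of all features. At an unadjusted p under 0.05, without *ASN2*, were 0 of 3 for 0N and 1 of 3 for WS, beside 17.5% and 7.94% of all features. With *ASN2* it was 2 of the 8 values. These were *ASN2* for 0N (-0.87, SE 0.28, limma adjusted p = 0.190), which was above CT in every library in WT and overlapped it in *zmccd8*, and *ASN1* for WS (0.46, SE 0.18, limma adjusted p = 0.543). For *ASN3* the interactions were -0.90 (95% interval -2.94 to 1.15) for 0N and -1.34 (-3.36 to 0.69) for WS. *ASN4*, called under WS in *zmccd8* and not in WT, had a WS interaction of -1.12 (-2.30 to 0.06, limma adjusted p = 0.637), so that a difference between genotypes was not shown.

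Genes around the reaction were taken as lists by words in the deposited descriptions. The list for asparagine breakdown held 13 genes, 9 of them tested, but 5 of the 9 are peptide-N4 asparagine amidases, which act on glycoproteins and not on free asparagine, and were caught by the word asparaginase in a domain name. Called in the list were 1 higher and 0 lower under 0N in WT, 1 and 1 in *zmccd8*, 0 and 3 under WS in WT and 1 and 2 in *zmccd8*. Of all features, 1.94% were called higher and 2.82% lower, 1.74% and 5.63%, 7.41% and 10.4%, and 6.24% and 10.3% in the same 4 comparisons. The median log2 difference of the list was 0.06, -0.25, -0.64 and -0.10 in that order, beside medians of 0.00, -0.01, -0.01 and 0.00 over all features. The 4 tested asparaginases proper, split off after the data were seen, had medians of 0.19, 0.26, -0.91 and -0.43, so that the sign under 0N in *zmccd8* turns without the amidases. Called among these 4 were 1 higher under 0N in each genotype, 2 lower under WS in WT, and 1 higher and 1 lower under WS in *zmccd8*.

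One asparaginase gene moved against *ASN3* under nitrogen deficiency. Zm00001eb068280, described as a probable L-asparaginase and mapped to chromosome 2 from 5280848 to 5283996, stood at 44.7, 13.6 and 27.7 FPKM in WT CT, 221, 230 and 215 FPKM in WT 0N and 53.6, 113 and 45.8 FPKM in WT WS. In *zmccd8* it stood at 38.1, 19.9 and 21.0 FPKM in CT, 96.4, 126 and 167 FPKM in 0N and 153, 203 and 178 FPKM in WS. The 0N libraries were above every CT library in both genotypes, where 37.3% of all features in WT and 44.7% in *zmccd8* did not overlap. It rose by a log2 difference of 3.06 (SE 0.39, limma adjusted p = 0.0119) under 0N in WT, 2.28 (SE 0.30, 0.0165) under 0N in *zmccd8* and 2.76 (SE 0.25, 0.000355) under WS in *zmccd8*. The 0N calls were lost without replicate 1 of WT 0N (limma adjusted p = 0.0562) and without replicate 3 of *zmccd8* CT (0.0686). A second gene of this kind, Zm00001eb049850, fell under WS with a log2 difference of -1.94 in WT and -1.83 in *zmccd8* (limma adjusted p = 0.000430 and 0.00284). It overlaps Zm00001eb049860, another asparaginase model, on the opposite strand. The amidase Zm00001eb221460 fell under 0N in *zmccd8* (-1.77, limma adjusted p = 0.0383), a call lost without any one of 5 of its 6 libraries (0.0527 to 0.120).

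Glutamine, the nitrogen donor, is made by glutamine synthetase, whose list held 12 genes, 7 of them tested. Called were 1 higher and 2 lower under 0N in each genotype, 1 higher and 2 lower under WS in WT, and 1 higher and 0 lower under WS in *zmccd8*, where 1.94%, 1.74%, 7.41% and 6.24% of all features were called higher and 2.82%, 5.63%, 10.4% and 10.3% lower. The list had medians of 0.06, 0.08, -0.57 and -0.51. Root isozyme 2 (Zm00001eb054990) fell under 0N with a log2 difference of -1.74 in WT and -1.92 in *zmccd8* and rose under WS by 3.42 and 2.29 (limma adjusted p = 0.0279, 0.0153, 0.000199 and 0.000184). Its levels were 10.8 to 21.0 FPKM in WT CT, 3.27 to 6.19 in WT 0N and 178 to 193 in WT WS, so the WS rise is the one far outside the spread. The 0N call was lost in WT without any one of 5 libraries, all but replicate 1 of CT (limma adjusted p 0.0546 to 0.0836), and in *zmccd8* without replicate 1 of 0N or replicate 1 or 3 of CT (0.0560 to 0.0672). The chloroplastic enzyme (Zm00001eb432580) fell under 0N with a log2 difference of -2.35 in WT and -2.61 in *zmccd8* (limma adjusted p = 0.00396 and 0.00440), calls that held in every leave-one-out fit, and with a log2 difference of -1.09 under WS in WT, which came under the fold threshold without replicate 3 of WS (-0.97). Root isozyme 3 (Zm00001eb190340) rose under 0N in WT from 161 to 205 to 497 to 593 FPKM (1.54, limma adjusted p = 0.00984), a call lost without replicate 1 of WT 0N (0.0525).

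Aspartate, the acceptor, comes from oxaloacetate through aspartate aminotransferase. Of 3 such genes, all tested, 1 was called lower under 0N in each genotype and 1 higher under WS in WT, beside 2.82% and 5.63% of all features lower and 7.41% higher, with medians of -0.53, -0.63, 0.53 and 0.42. The mitochondrial enzyme (Zm00001eb238900) fell under 0N from 36.2 to 51.1 FPKM to 10.2 to 17.1 FPKM in WT (-1.59, limma adjusted p = 0.0140) and with a log2 difference of -1.54 in *zmccd8* (0.0140). These 2 calls were lost without replicate 1 of WT 0N (limma adjusted p = 0.0641) and, in *zmccd8*, without replicate 1 of 0N or replicate 1 or 3 of CT (0.0525 to 0.0648). The cytosolic enzyme (Zm00001eb152450) rose under WS in WT from 43.9 to 74.0 FPKM to 156 to 222 FPKM (1.53, limma adjusted p = 0.00400).

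Phosphoenolpyruvate carboxylase supplies oxaloacetate, and its list held 10 genes, 5 of them tested, with 1 called higher under WS in each genotype, beside 7.41% and 6.24% of all features, and none under 0N. That gene, Zm00001eb238670, rose by 1.303 in WT and 1.136 in *zmccd8* (limma adjusted p = 0.00353 and 0.00410), and in *zmccd8* came to 0.94, under the fold threshold, without replicate 2 of CT. List medians were 0.04 and -0.35 under 0N and 0.45 and 0.08 under WS.

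**Figure D4:**
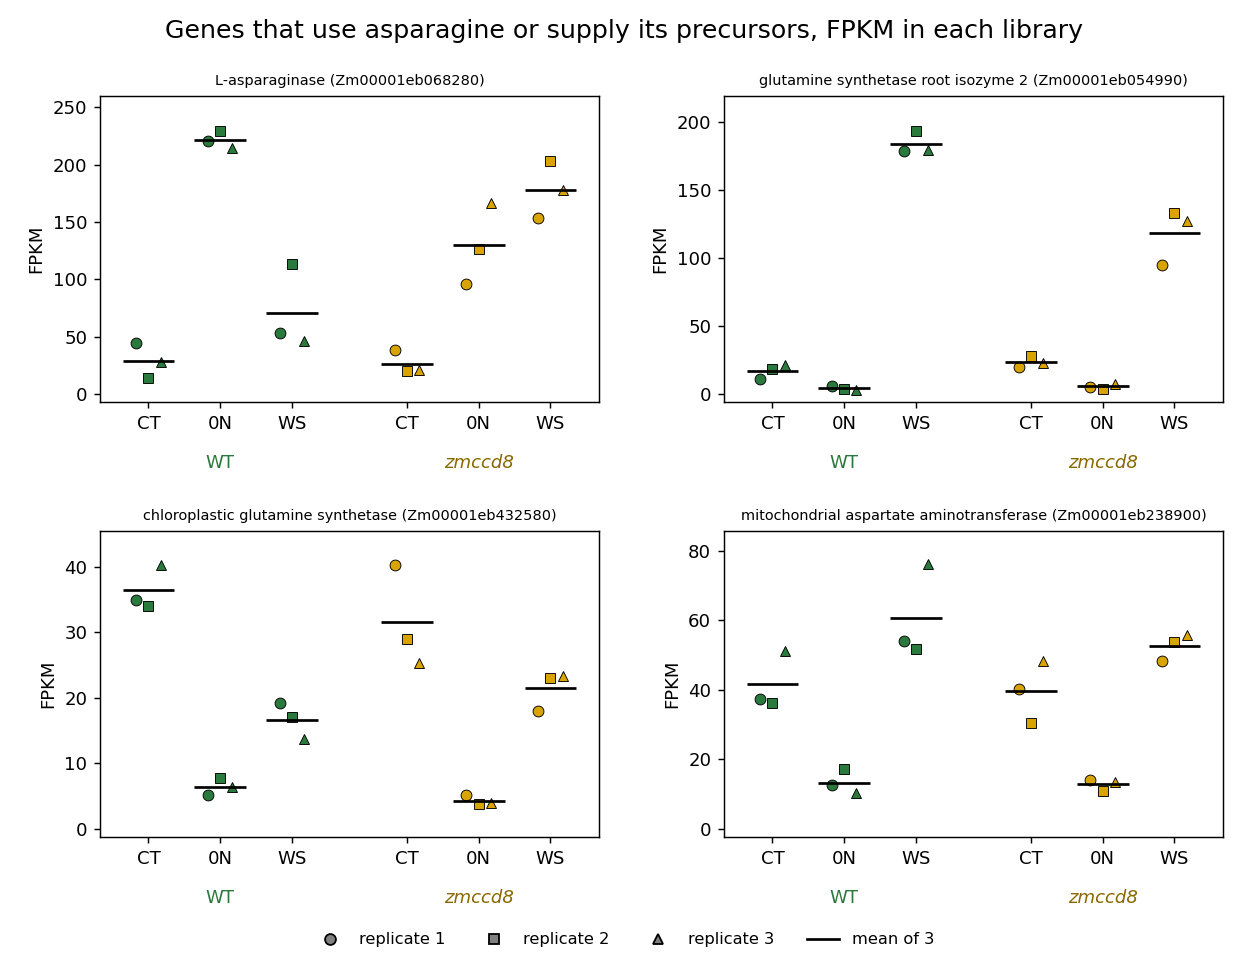
FPKM (y axis, linear, a separate scale per panel) in each library of an asparaginase, 2 glutamine synthetases and an aspartate aminotransferase, by condition and genotype (x axis), with replicates as symbols and their mean as a bar. The asparaginase is at 96.4 to 230 FPKM in 0N against 13.6 to 44.7 in CT, glutamine synthetase root isozyme 2 is high in WS, and the other 2 genes are lowest in 0N.

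Competing users of aspartate, namely aspartokinases and aspartate-semialdehyde dehydrogenase, which lead to lysine, threonine and methionine, numbered 13 genes with 11 tested. The aspartokinase-homoserine dehydrogenase Zm00001eb309070 was the 1 call, lower under 0N in both genotypes, beside 2.82% and 5.63% of all features (-1.68 and -1.63, limma adjusted p = 0.00529 and 0.00633), and none was called under WS. List medians were 0.18 and -0.11 under 0N and 0.06 and 0.10 under WS. Asparagine-tRNA ligases, which load asparagine for protein synthesis, numbered 5 with 3 tested, and none was called in these 4 comparisons, with medians of -0.05, 0.30, 0.11 and 0.37.

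Group C and S1 bZIP factors were included because Arabidopsis bZIP53 and its relatives are known to act on *ASN1* of that species. All 5 were tested, with 1 called higher under 0N and 2 lower under WS in each genotype, beside 1.94% and 1.74% of all features higher and 10.4% and 10.3% lower, and medians of 0.13, -0.22, -0.30 and -0.45. Zm00001eb014590, described after bZIP53, rose under 0N by 2.02 in WT and 1.54 in *zmccd8* (limma adjusted p = 0.00808 and 0.0226), the latter lost without replicate 1 of 0N or replicate 1 or 3 of CT (0.0578 to 0.0867). Zm00001eb231360 and Zm00001eb209070, described after the same factor, fell under WS with a log2 difference of -1.38 and -1.26 in WT and -1.40 and -1.43 in *zmccd8* (limma adjusted p 0.00565 to 0.0346). In *zmccd8* both came under the fold threshold without replicate 2 of CT, the second to -0.90, and the second was also lost without any one WS replicate (0.0656 to 0.103). The root marker list, matched by the Casparian strip membrane protein name or domain, fell in sum under water stress as well. It went from 558 to 799 FPKM in WT CT to 273 to 284 FPKM in WT WS and from 659 to 707 to 234 to 285 FPKM in *zmccd8*. Of its 34 genes tested, 3 were called higher and 12 lower in WT, beside 7.41% and 10.4% of all features. In *zmccd8* 2 were called higher and 12 lower, beside 6.24% and 10.3%. The part of these markers in any WS difference given here was not tested.

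Among 23873 other annotated genes that passed the filter, those whose log2(FPKM + 1) was most like each member over the 18 libraries were picked by Pearson's r, as a description. Libraries share condition and genotype, so that any gene with a strong response to them can rank high. *ASN3* was most like a guanosine deaminase gene (Zm00001eb304250, r = 0.965), which acts in purine breakdown, then an oryzain-type cysteine protease (Zm00001eb433330, 0.939) and a protein kinase described after STY46 (Zm00001eb230270, 0.933). The deaminase averaged 115 FPKM in WT CT, 20.6 in WT 0N and 26.5 in WT WS, against 102, 14.3 and 18.3 in *zmccd8*. *ASN2* was most like Zm00001eb206670, without an informative plant description (0.974), an AP2-type factor described after AIL5 (Zm00001eb015020, 0.965) and the EGY3 metalloprotease (Zm00001eb056010, 0.965). These were low outside WS, as *ASN2* was.

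*ASN1* was most like a regulatory subunit of protein phosphatase 6 (Zm00001eb070360, r = 0.964), a threonine-tRNA ligase (Zm00001eb045520, 0.963) and an AVT1C-type amino acid transporter (Zm00001eb404730, 0.958). *ASN4* had weaker partners, with r of 0.867 for a gene described after paladin (Zm00001eb049240), 0.847 for an ABC transporter of the C family (Zm00001eb419770) and 0.833 for Zm00001eb074680, which has no description. No gene of the pathway lists was among the 3 most like any member.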

How the data were processed

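Roots of 18 samples were sequenced by the study as strand-specific poly(A) libraries. The authors trimmed reads, aligned them with HISAT2 2.0.5 to Zm-B73-REFERENCE-NAM-5.0, counted them with featureCounts and deposited FPKM per gene. The counting settings are not given in the sources used here. From FPKM times gene length, reads were rebuilt, and 100% of values came out whole within 0.01 reads. They gave the depth and the voom alternative.

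Here a pseudocount of 1 was added and log2 values were compared in limma 3.58.1 (R 4.3.3) with variances that follow the mean, two-sided, on the 6 libraries of the groups compared (12 for interactions), over 27530 features. One further line of the table was emptied for this work and is not analysed here. Tables and plots used Python 3.11.15, pandas 2.3.3, numpy 2.4.6 and matplotlib 3.10.9. The procedure was run on simulated data with normal noise, the same spread in both groups and no shift in low genes. That check does not cover low genes such as *ASN2* or single outlying libraries. Replicates were separate samples, so p-values measure the spread between 3 libraries, and an exact test of 3 against 3 could not go below 0.1.

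Replicate numbers might pair samples. Correlations of same-numbered deviations were all above 0.1 only for WS against CT (0.135, 0.224 and 0.253) and WS against 0N (0.181, 0.199 and 0.234) in *zmccd8*. The numbers were taken to pair these from the data alone, since no label states a pairing. For 0N against CT in *zmccd8* the correlations were 0.143, 0.390 and 0.0963, so that the cut at 0.1 decided, and no comparison within WT passed it. The pairing is thus an assumption.

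Members and lists were chosen with earlier results of these data known. Named were all members, per list the 3 called genes at most with the largest differences of 0N or WS from CT, and the 3 genes most like each member. Alternatives were a pseudocount of 0.1, no filter, a mean of at least 5 FPKM, all 18 libraries in 1 fit, the median of ratios, no variance trend, a replicate block, voom on rebuilt reads, a call rule without the fold threshold and fits that each lacked 1 library. For the pathway genes they were added after the data were seen. Gene and protein sequences were not used here. RefSeq names came from overlapping coordinates of the same build.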

Additional observations from a re-analysis of the deposited data

How the results depend on the processing

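Each of the 44 differences of the 4 genes with reads was recomputed under the alternatives, which gave 697 values. Direction and call were kept in 654 of them, a call was lost in 20 and gained in 12 (4 of these with the adjusted p alone), and 11 turned in sign, all of these in uncalled differences with a library left out. *ASN2* was not tested with a mean of at least 5 FPKM.

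The number of members called moved as follows. These counts include *ASN2*, which passed the filter only through WS, and no share of all features under each alternative is given beside them. They describe only how the calls depend on the setting. Without the filter, which tests more genes, it went from 1 to 0 for 0N against CT in each genotype and for WS against 0N in WT, and from 2 to 1 for WS against CT in WT. With a mean of at least 5 FPKM, which drops *ASN2*, it went to 2 for 0N against CT in *zmccd8*, from 2 to 1 and from 3 to 2 for WS against CT in WT and *zmccd8*, and to 0 for WS against 0N in each genotype. In a fit of all 18 libraries it was 2 for 0N against CT in each genotype and for WS against 0N in WT, *ASN4* being added. With voom it was 2 for 0N against CT in *zmccd8* and 0 for WS against 0N in WT. With the adjusted p alone *ASN1* was added, giving 2 for 0N against CT in *zmccd8* and for WS against 0N in each genotype and 3 for WS against CT in WT. The cause of the changes in the fit of all libraries and with voom was not tested. With each library left out in turn, the count ran from 0 to 1 for 0N against CT in each genotype, 1 to 2 for WS against CT in WT, 3 to 3 in *zmccd8*, 0 to 2 for WS against 0N in WT and 1 to 1 in *zmccd8*, and stayed 0 in the genotype comparisons and interactions.

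Leaving out a library turned the sign in 5 results, whose values then ran from -0.093 to 0.053 for *ASN1* and -0.63 to 0.67 for *ASN3* between genotypes under CT, from -0.74 to 0.046 for *ASN4* between WS and CT in WT, from -0.40 to 0.29 between WS and 0N in *zmccd8*, and from -0.29 to 0.52 for its 0N interaction. A pseudocount of 0.1 or voom moved *ASN2* most, for example from -0.87 to -2.84 and -4.58 for the 0N interaction, uncalled throughout.

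In the 2 comparisons whose numbers were taken to pair the samples, a replicate block left 3 and 1 members called, as without it. *ASN2* is among them in both. With *ASN2* left out, and without the block, 2 of 3 and 0 of 3 were called. Elsewhere the numbers did not pair by the check, and samples correlated best with their own number in 0 to 4 of 6 cases. There the block left the count at 1 for WS against 0N in WT, but *ASN2* was lost (limma adjusted p = 0.0530) and *ASN4* gained (0.0115), and it changed no other call of a member. Under the block the pathway calls lost were Zm00001eb054990 (0.0869) and Zm00001eb238900 (0.0603) under 0N in WT and Zm00001eb028430 between genotypes under 0N (0.164).

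Depth limits *ASN2* outside WS, with 0 to 74 reads a library, while 147 or more reads in every library stood behind *ASN1*, *ASN3* and *ASN4*. For these genes spread between replicates is the limit.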

Other observations

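Of all the pathway genes, 1 was called between genotypes, under 0N, and it was chosen after its values were seen. It was 1 of the 5 bZIP factors tested. The other lists, without a call, had 9 genes tested for asparagine breakdown, 7 for glutamine and 3 for aspartate supply. Tested as well were 5 genes for oxaloacetate supply, 11 other aspartate users and 3 asparagine-tRNA ligases. Of all features, 0.835%, 1.57% and 0.901% were called between genotypes under CT, 0N and WS. Ocs element-binding factor 1 (Zm00001eb028430), a maize bZIP factor, was lower in *zmccd8* than in WT under 0N by a log2 difference of -1.26 (SE 0.21, limma adjusted p = 0.0389). That call was lost without any one of 5 of its 6 libraries (limma adjusted p 0.0801 to 0.159), the exception being replicate 3 of *zmccd8* 0N.

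Replicate 3 of WT WS was the library of its group with the highest *ASN2*, *ASN3* and *ASN4* and the lowest *ASN1*. Without it the WS difference from CT in WT was 2.05 for *ASN2*, -2.81 for *ASN3*, -0.57 for *ASN4* and -0.58 for *ASN1*, and the calls of *ASN2* and *ASN3* held. Replicate 3 of *zmccd8* CT, the library in which *ASN3* stood at 421 FPKM, had *ASN1* at 74.4 FPKM beside 71.0 and 73.8 in the other replicates.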
